A study of Mus musculus with 6 samples.

Results

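The stretch of the mouse immunoglobulin heavy chain locus (Igh) described here runs from the intronic enhancer and the J segments over the D segments to IGCR1, on chromosome 12 of the mouse build mm9. Open chromatin in it was read from 6 ATAC-seq peak lists, in which the transposase Tn5 marks DNA that is free of nucleosomes. Overlapping peaks of the 6 lists were joined into regions, and the regions with their midpoint between borders set for this stretch were kept. They number 10, of 149724 regions in the genome, reach from 114653882 to 114726376, and are called regions 1 to 10 from the constant-gene side to the VH side. The borders come from general knowledge of the locus. No annotation of mm9 was used, so no region is assigned to a single gene segment. Where IGCR1 and its CTCF-binding elements lie relative to regions 7 to 10 was not checked, and the IGCR1 end means only the VH-side end of the window.

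All 6 libraries come from pro-B cell lines, cultured B cell precursors, labelled as strain 129SV, bone marrow and RAG2-deficient. RAG2 is part of the recombinase that joins the segments, so the controls lack it too. The WT line has the Wild type genotype label, and the CBE_1 and CBE_2 lines have the genotype label IGCR1-/-, for IgH alleles with a mutated IGCR1. Each line has 2 libraries of 200000 untreated cells, and the labels do not say whether duplicates are separate cultures, so the spread between them may be technical. With 1 WT line, effects of the genotype and of the line itself cannot be told apart. The labels do not state which bases were changed, and in a peak list closed chromatin and missing DNA cannot be told apart. The cell type was not checked against marker genes, because no gene positions of mm9 were used.

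Heavy chain genes are assembled in pro-B cells by joining a D segment to a J segment and then a VH segment to the joined DJ. The intronic enhancer, between the J segments and the first constant gene, is known to drive transcription and opening of the J and D segments. IGCR1 lies between the D segments and the nearest VH segments and holds elements bound by the insulator protein CTCF. It is known to keep the D segments from joining early to the nearest VH segments. In the RefSeq gene table of GRCm38.p6, the order from the constant side is Ighm, the 4 J segments from Ighj4 to Ighj1, then Ighd4-1, Ighd3-2 and the other D segments. That table lists 10 D segments and 10 D pseudogenes before the first VH segment.

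The lists held between 72318 and 112241 peaks, fewest in CBE_1 replicate 1 and most in WT replicate 1. The number of reads behind them is unknown. Each peak has the authors' fold over background at its summit. In every list the folds were whole multiples of 1 step, within 2% of that step. From the step, the number of overlapping reads at a summit (the pileup) can be inferred, and it gives a 95% Poisson interval that covers counting error only. The lowest fold in a list was between 2.04 and 2.26, so a region without a peak may still hold signal below that level. Folds and ranks of lists with unlike lengths are not on 1 scale. Lines are therefore compared by the percentile of a region among the 47767 regions present in all 6 libraries. The ratio of regions within a list is used too. Presence is also compared, but it depends on the length of a list, and both WT lists were longer than every mutated list.

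Regions 1 to 5, which are 5 of the 10, had a peak in all 6 libraries, as did 31.9% of regions in the genome. Regions 9 and 10 had a peak in each WT library and in no mutated library. This pattern held for 8.68% of all regions and for 15.2% of those present in both WT libraries. None of the 10 was present in all 4 mutated libraries and absent from WT, a pattern of 1.52% of regions. Regions 6, 7 and 8 were present in 3, 5 and 1 of the libraries. Regions 1 to 5 were thus found in every list, and each of regions 6 to 10 was missing from at least 1 mutated list. Region 6 lies 0.189 kb from region 5 and 32.63 kb from region 7, so it is not at the IGCR1 end.

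**Figure D1:**
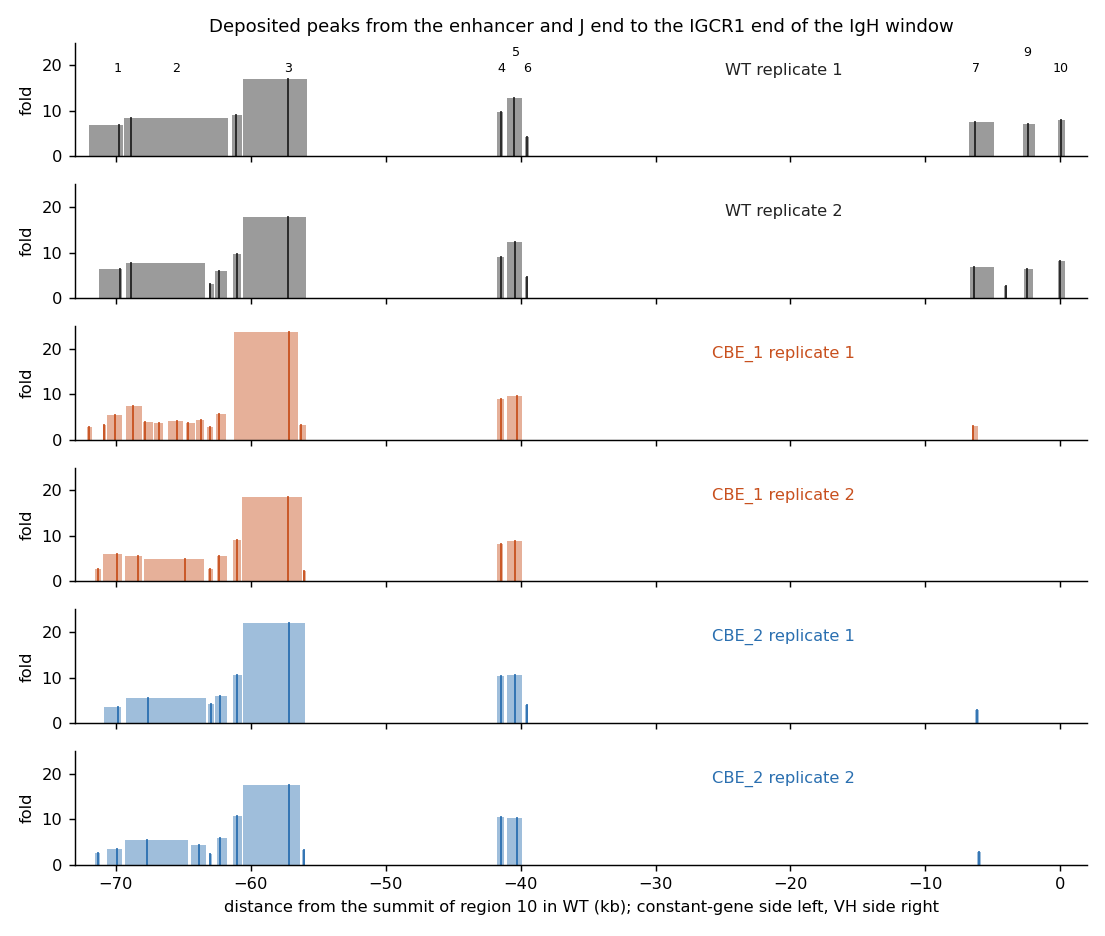
Peaks of each library across the window. The x axis is the distance in kb from the WT summit of region 10, and the y axis is the deposited fold; a box spans a peak and the thin line marks its summit, with region numbers above WT replicate 1 (region 8, at -4.04 kb, is not numbered). Regions 1 to 5 have peaks in all 6 libraries, and the peaks of regions 9 and 10 appear in WT alone.

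Most differences in presence lay at the IGCR1 end of the window. Regions 7 to 10 lie within 7.125 kb, at chr12:114719252-114726376. Peaks covered 3.2 kb of it in WT replicate 1 and 3.18 kb in WT replicate 2. They covered 0.404 kb in CBE_1 replicate 1, none in CBE_1 replicate 2, 0.284 kb in CBE_2 replicate 1 and 0.267 kb in CBE_2 replicate 2. Within these borders the WT values were far above all mutated values. The stretch begins and ends at peak edges of WT replicate 1, and it was chosen with the regions found in WT alone known. Its borders therefore favour WT, and the difference is a description with no test. Coverage of similar stretches elsewhere in the genome was not compared.

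Region 9, at chr12:114723239-114724090, had a fold of 7.14 in WT replicate 1 (interval 5.54 to 9.07, a pileup of 65) and 6.48 in WT replicate 2 (interval 4.95 to 8.35, a pileup of 58). Its WT peaks were 852 and 661 bp wide, with summits at 114723574 and 114723544. By fold it ranked 30256th of 112241 peaks in the list of WT replicate 1 and 33428th of 106056 in that of WT replicate 2, at percentiles 72.8 and 68.2. Most peaks of both lists were thus weaker than region 9.

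Region 10, at chr12:114725829-114726376, was the stronger of the pair. Its folds were 8.01 in WT replicate 1 (interval 6.30 to 10.04) and 8.13 in WT replicate 2 (interval 6.40 to 10.19), both on a pileup of 73. Its peaks were 516 and 530 bp wide, and the summits, at 114726027 and 114725989, agreed within 38 bp. The WT percentiles were 76.0 and 74.9. The summits of regions 9 and 10 were 2.449 kb apart, averaged over the WT libraries.

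No mutated list had a peak at either place. The lowest fold that a mutated list held was 2.26 and 2.08 for CBE_1 and 2.08 and 2.04 for CBE_2, which stand for pileups of 14, 19, 16 and 18. The lower bounds of all 4 WT intervals lay above these levels. The nearest summit to that of region 9 was 4.05 kb away in CBE_1 replicate 1, 38 kb in CBE_1 replicate 2, and 3.71 and 3.58 kb in CBE_2.

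Region 7, at chr12:114719252-114721083, lies on the D side of the pair and was wide in WT. Its folds were 7.47 and 6.92 in WT, with intervals of 5.82 to 9.44 and 5.33 to 8.84. CBE_2 replicates 1 and 2 had folds of 2.82 and 2.79, CBE_1 replicate 1 had 3.02, and CBE_1 replicate 2 had no peak. The highest upper bound among the mutated libraries was 4.63, below both WT lower bounds, although these folds come from separate lists.

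Within a list, the fold of region 7 was 0.76 and 0.77 times that of region 4, a region nearer the J end and present in all libraries, in the WT libraries. The same ratio was 0.33 in CBE_1 replicate 1 and 0.27 in both CBE_2 libraries. CBE_1 replicate 2 had no peak at region 7 and so no ratio. The counting intervals were 0.54 to 1.05 and 0.54 to 1.08 in WT, and 0.18 to 0.55, 0.16 to 0.43 and 0.16 to 0.40 in the mutated libraries. Only the interval of CBE_1 replicate 1 touched those of WT. Region 4 itself ranked higher among shared regions in the mutated libraries, by 5.83 points on average. How often the ratio of other pairs of regions differs in this way was not counted.

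The width of region 7 also differed between the lines. Its peak spanned 1832 and 1770 bp in WT, and 404, 284 and 267 bp in the 3 mutated libraries that had one. The WT summits lay at 114719646 and 114719610. The remnants had summits at 114719513 in CBE_1 and at 114719849 and 114719983 in CBE_2, so they fell on either side of the WT summit.

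Region 8, at chr12:114721849-114722064, was a single peak of WT replicate 2, with a fold of 2.64 and a pileup of 23 (interval 14.6 to 34.5). It ranked at percentile 8.0 of that list. Its interval reached below the weakest pileup called in WT replicate 1, which was 18, so its absence there is within counting error.

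**Figure D2:**
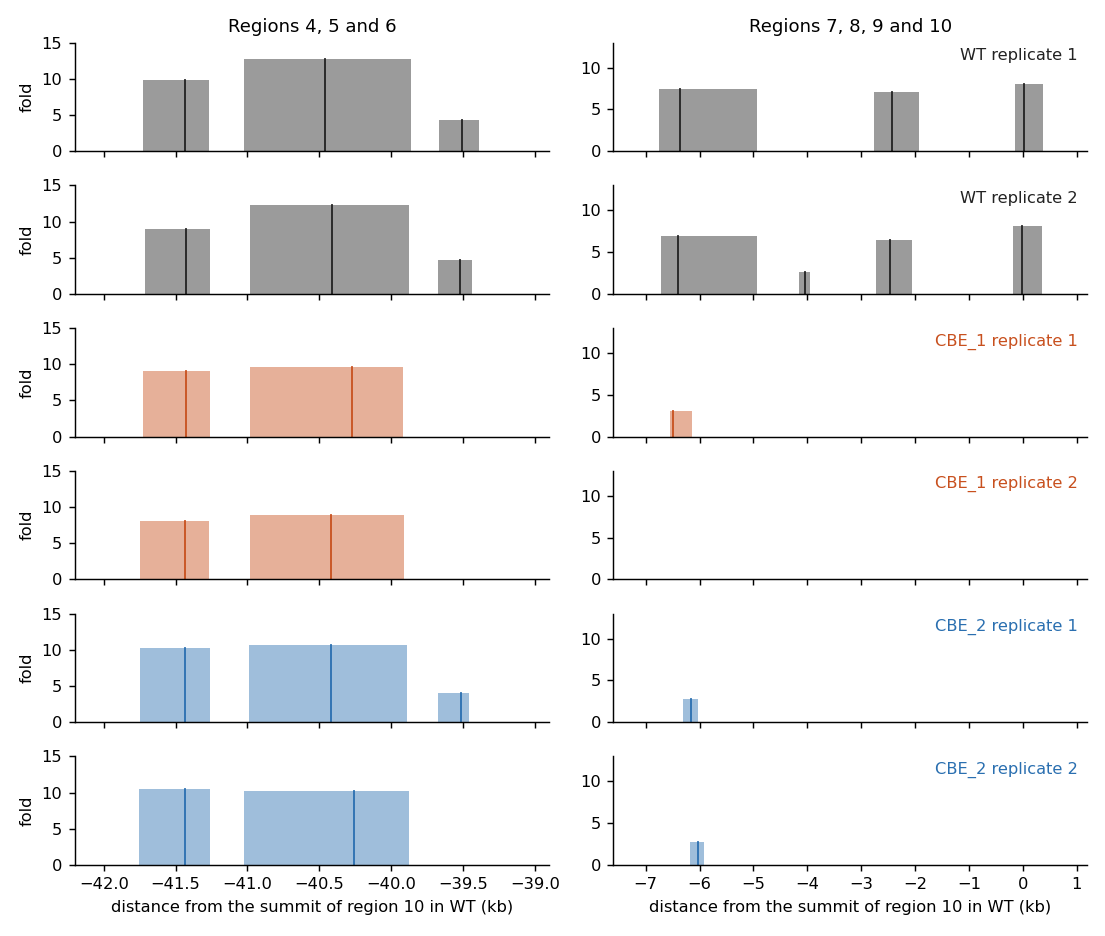
The same peaks around regions 4 to 6 (left) and regions 7 to 10 (right), 1 row per library; x is the distance in kb from the WT summit of region 10 and y the deposited fold. On the left regions 4 and 5 have a peak in all rows; on the right the wide WT peak of region 7 is replaced by peaks of 404 bp or less, and CBE_1 replicate 2 has no peak.

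Regions of equal strength across the genome give the level against which the pair can be read. For each of its members, the comparison set held the regions outside the window that were present in both WT libraries and whose mean percentile in the WT lists was within 2.5 points. Of 5180 regions as strong as region 9, 233 (4.5%, Wilson interval 3.97 to 5.10%) had no peak in any mutated library, and 78% had one in all 4. Of 5171 regions as strong as region 10, 198 (3.83%, Wilson interval 3.34 to 4.39%) had none and 83% had one in all 4. The pair was known to be WT-only before these sets were drawn, so the shares are a description with no test. On chromosome 12 alone the shares were 2.79% and 2.7%, on 6 regions each. With only the better 50% of each list they were 16.8% and 12.8%.

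The share of such regions with a peak differed between the mutated lists. Of the regions as strong as region 10, 85.2% and 88.6% had a peak in the CBE_1 libraries and 94% and 94.3% in the CBE_2 libraries. The CBE_1 lists were shorter, with 72318 and 80242 peaks against 94665 and 97522 in CBE_2. These shares and percentiles are therefore not on 1 scale between the lines. The regions of this set with a peak had median percentiles of 61.8 and 65.9 for CBE_1 and 70.1 and 70.5 for CBE_2. A region of this strength was thus in most cases still well above the threshold in both mutated lines.

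Close neighbours that were both WT-only were counted among regions at least as strong as region 9, of which 1.69% were WT-only taken singly. In both WT libraries, 2009 pairs of neighbouring regions reached that strength in both members and had summits at most 2.5 kb apart. In 12 of them (0.597%), regions 9 and 10 included, both members were WT-only, and in 36 exactly 1 was. On chromosome 12 there was 1 such pair, regions 9 and 10. The pairs examined on that chromosome were not counted separately, so no share can be given for it. With summits up to 5 kb apart, 21 of 5692 pairs (0.369%) were WT-only in both members, and still 1 on chromosome 12. These limits were chosen with the distance of the pair known, and the strength limit is that of region 9 itself.

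Region 7 kept a peak in 3 mutated lists, but a weak one. Its percentile was 14.1 in CBE_1 replicate 1, 14.4 in CBE_2 replicate 1 and 16.5 in CBE_2 replicate 2. In 5178 regions as strong in WT, those with a peak had medians of 57.7, 66.5 and 67.3 in the same lists. Only 282 (5.45%) stood at or below region 7 in all 4 mutated lists at once. Its mean covered length in the mutated libraries was 13.3% of that in WT, against a median of 83.5%, and 6.26% of the set was at or below that value.

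**Figure D3:**
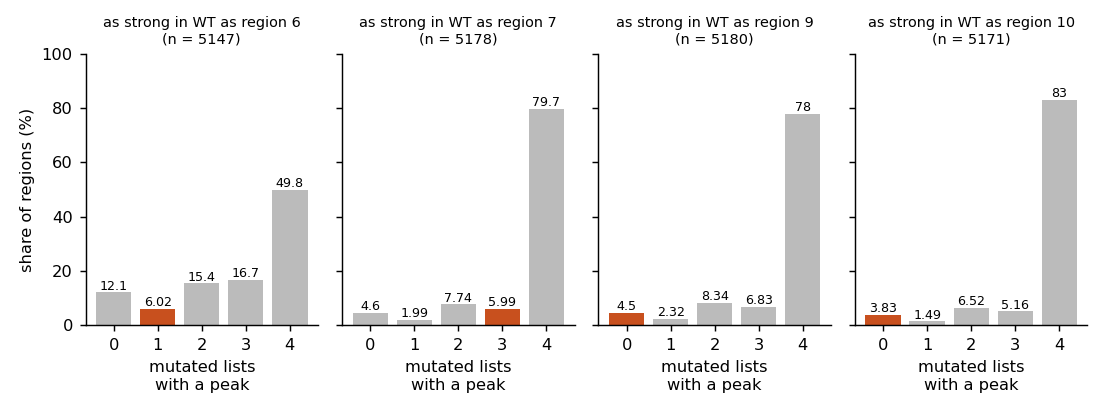
Regions outside the window that were as strong in both WT libraries as regions 6, 7, 9 and 10, by the number of mutated lists (0 to 4) in which they had a peak; y is the share of each set in percent, and the coloured bar marks the number for the window's own region. Regions 9 and 10 fall in bars of 4.5% and 3.83%, while 78% and 83% of regions of their strength had a peak in all 4 mutated lists.

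Beyond region 10 no list held a peak up to the VH-side border of the window. The longest stretch free of peaks was 36.4 and 36.5 kb in the WT libraries, from region 10 to a region outside the window at chr12:114762630-114763355. It was 42.0 kb in CBE_1 replicate 1 and 41.8 kb in both CBE_2 libraries, starting at region 7. In CBE_1 replicate 2 it was 75.6 kb and started at region 5. Just outside, a region at chr12:114761746-114762129 had weak peaks in all 4 mutated libraries, with folds of 2.56 to 3.01, and none in WT. The region at chr12:114762630-114763355 had a peak in all libraries, and its percentile among shared regions was 3.0 and 6.5 for WT, against 46.1 to 55.5 in the mutated libraries. All 4 mutated libraries thus lay above both WT libraries there, as in 20.3% of shared regions. This direction is opposite to that of regions 7, 9 and 10. How often a difference of this size occurs was not counted.

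Between the J end and the IGCR1 end, regions 4, 5 and 6 lay together within 2.372 kb, and at regions 4 and 5 all 3 lines were open. Region 4, at chr12:114684250-114684750, had folds of 9.85 and 9.01 for WT, 9.05 and 8.13 for CBE_1 and 10.30 and 10.52 for CBE_2. Its peaks were 453 to 500 bp wide and its 6 summits agreed within 10 bp. It was the most sharply placed of the regions found in all libraries.

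Among the shared regions, region 4 stood at percentiles 57.3 and 53.3 for WT, 61.8 and 58.2 for CBE_1 and 61.2 and 63.4 for CBE_2. All 4 mutated libraries thus lay above both WT libraries, as they did in 20.3% of shared regions. The mean difference was 5.83 points, against a pooled SD of duplicates of 2.39 points. A two-sided exact permutation test over the libraries gave p = 0.133, the smallest value that 2 against 4 libraries allow. This test takes libraries as independent, although they are duplicates of 3 lines, and a comparison of 1 line with 2 lines is too small to pass any usual threshold. The same holds for each permutation p given here.

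Region 5, at chr12:114684987-114686143, starts 0.236 kb farther along and went the other way. It had folds of 12.77 and 12.30 for WT, 9.65 and 8.86 for CBE_1 and 10.67 and 10.20 for CBE_2. Its percentiles were 68.4 and 66.6 for WT, 63.7 and 61.1 for CBE_1 and 62.6 and 62.1 for CBE_2. All mutated libraries lay below both WT libraries, as in 20.1% of shared regions. The mean difference, mutated minus WT, was -5.15 points (pooled SD 1.29, exact permutation p = 0.133, two-sided). The covered length hardly moved, at 1103 to 1157 bp in WT and 1071 to 1143 bp in the mutated libraries.

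Within a list, the fold of region 4 was 0.77 and 0.73 times that of region 5 for WT, 0.94 and 0.92 times for CBE_1 and 0.97 and 1.03 times for CBE_2. Region 5 was the higher of these neighbours in WT, and the regions were nearly level in the mutated lines. The groups did not overlap. Of 4188 pairs of neighbouring shared regions at most 500 bp apart, the ratio was higher in all 4 mutated libraries in 18.3% and lower in 18.6%. The counting intervals of single libraries, 0.58 to 1.02 in WT replicate 1 and 0.77 to 1.39 in CBE_2 replicate 2 for instance, overlapped.

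Region 6, at chr12:114686333-114686621, was the smallest of the cluster. It had folds of 4.33 and 4.72 in WT and 4.05 in CBE_2 replicate 1, and no peak in the CBE_1 libraries or in CBE_2 replicate 2. Its 3 summits agreed within 10 bp. Of 5147 regions as strong in WT, 12.1% had no peak in any mutated library, 6.02% had 1 and 49.8% had 4. In CBE_2 the duplicates disagreed, so its presence in that line is not settled.

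**Figure D4:**
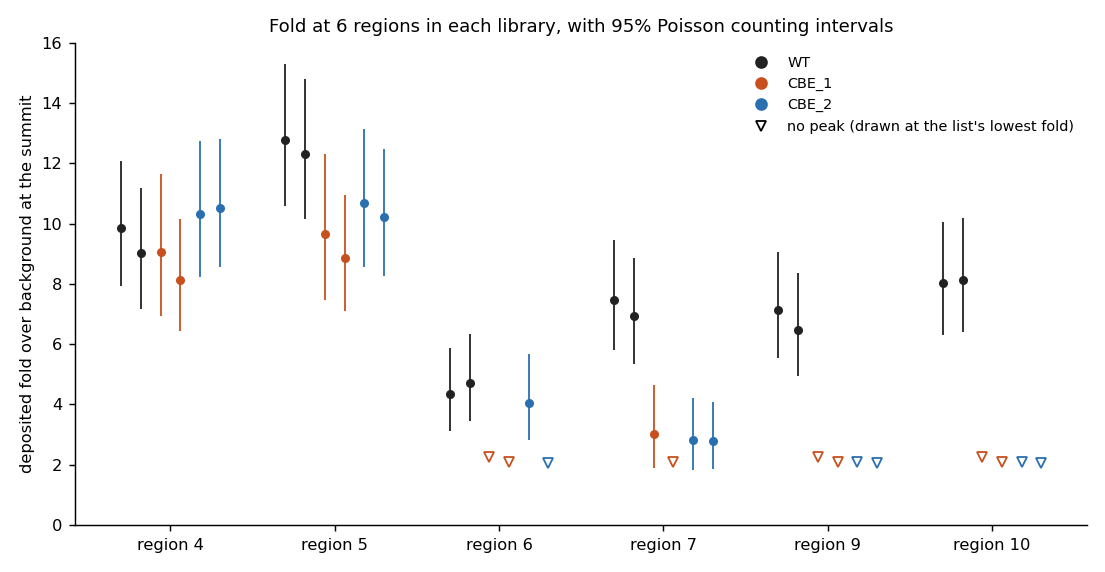
Deposited fold at the summit of 6 regions, 1 point per library in the order WT, CBE_1, CBE_2; bars are 95% Poisson counting intervals from the inferred pileup, and open triangles mark libraries without a peak, drawn at the lowest fold of their list. At regions 7, 9 and 10 the WT intervals lie above all mutated points, while at region 4 the intervals of all libraries overlap.

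From region 6 to region 7, a stretch of 32.63 kb was empty of peaks in every list. Gaps between regions of at least that length made up 11.6% of the 5848 gaps on chromosome 12, so it is not a rare length. The median gap there was 3.577 kb. How reads that map to more than 1 place were handled is not given in the sources used here, and the D segments are known to lie in repeated units.

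At the enhancer and J end, region 3 was the strongest region of the window in every library. It spans 5.584 kb at chr12:114664639-114670222, and its highest summit lay 54.8 kb from that of region 9. The fold was 17.10 and 17.80 for WT, 23.68 and 18.55 for CBE_1 and 21.95 and 17.50 for CBE_2, on pileups of 156 to 178. Its 6 summits agreed within 39 bp, and peaks covered 5.094 to 5.470 kb of it. Region 3 was thus of nearly the same extent in all lists.

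Region 3 stood at percentiles 83.1 and 84.8 for WT, 88.1 and 87.3 for CBE_1 and 94.7 and 88.1 for CBE_2. All mutated libraries ranked higher than both WT libraries, by 5.58 points on average (pooled SD 2.80, exact permutation p = 0.133, two-sided). Again 20.3% of shared regions did so. Of 5404 regions as strong in WT, 67 (1.24%) were at or above region 3 in all 4 mutated lists. This share rests on CBE_2 replicate 1, where region 3 was highest: without that library 628 (11.6%) were at or above it in the other 3 lists. That alternative was chosen after seeing the data.

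The fold of region 3 was 1.34 and 1.45 times that of region 5 for WT, 2.45 and 2.09 times for CBE_1 and 2.06 and 1.72 times for CBE_2. The mutated libraries did not overlap with WT. Of 11032 pairs of shared regions about as far apart, within 10% of 20.35 kb, 20.8% had a ratio higher in all 4 mutated libraries. A ratio that differed in this direction was therefore common among pairs of this spacing.

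Beside the main peak, region 3 held a smaller one on its constant-gene side, with summits between 114664949 and 114665018. It had folds of 9.20 and 9.78 for WT, 9.17 for CBE_1 replicate 2 and 10.67 and 10.74 for CBE_2. In CBE_1 replicate 1 a single peak of 4706 bp covered both. This small peak ranked between percentiles 76.7 and 81.7 of its lists, so it too was among the stronger peaks.

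Region 2, at chr12:114656628-114664314 and 7.687 kb long, lies 0.324 kb from region 3 on the constant-gene side. It was 1 unbroken peak in WT replicate 1 and 3 to 8 peaks in the other lists. In WT its highest summit lay at the constant-gene end, with folds of 8.55 and 7.80. At that end the highest fold was 7.39 and 5.52 for CBE_1 and 5.52 and 5.48 for CBE_2, with summits as far as 114658426. At the J-side end the folds were 5.93 for WT replicate 2, 5.58 and 5.63 for CBE_1 and 5.89 and 5.80 for CBE_2. WT replicate 1 had no separate summit there. The median fold of shared regions was 8.44 and 8.35 for WT, 6.48 and 6.67 for CBE_1 and 7.97 and 7.73 for CBE_2. The folds at either end are therefore not on 1 scale and do not rank the lines. The limits of these ends were set after the peaks had been seen.

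The percentiles of region 2 were 50.9 and 46.7 for WT, 55.1 and 41.6 for CBE_1 and 33.9 and 34.3 for CBE_2. The CBE_1 libraries fell on either side of WT, and the CBE_2 libraries were lower than all others (mutated against WT, exact permutation p = 0.4, two-sided). Each percentile is that of the highest peak, which was not at the same place in every list. It lay at the constant-gene end in WT and CBE_1 replicate 1, and at the J-side end in CBE_1 replicate 2 and CBE_2. These summits spread over 6598 bp, so the ranks and the test do not compare a single site. Both CBE_2 libraries ranked below both WT libraries in 33.2% of shared regions.

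Region 1, at chr12:114653882-114656527, showed the largest difference between the mutated lines among the 5 shared regions. Its folds were 6.92 and 6.48 for WT, 5.43 and 5.94 for CBE_1 and 3.56 and 3.44 for CBE_2. Its percentiles were 40.4 and 37.2 for WT, 41.1 and 44.4 for CBE_1 and 7.5 and 6.5 for CBE_2. Both CBE_1 libraries were above both WT libraries by a small margin, as in 36.9% of shared regions. Both CBE_2 libraries were below both WT libraries, as in 33.2% of shared regions. CBE_2 differed from WT by -31.8 points, and its duplicates had an SD of 0.706 points. Of 5245 regions as strong in WT, 15.5% and 14.5% were at or below region 1 in CBE_2 replicates 1 and 2. Regions without a peak were counted as below. Over all 4 mutated libraries the difference was -13.9 points, with an exact two-sided permutation p of 0.8. Peaks covered 2.455 and 1.757 kb of it in WT and 1.231 to 1.833 kb in the mutated libraries. With the better 50% of each list region 1 was present in WT and CBE_1 and in neither CBE_2 library.

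**Figure D5:**
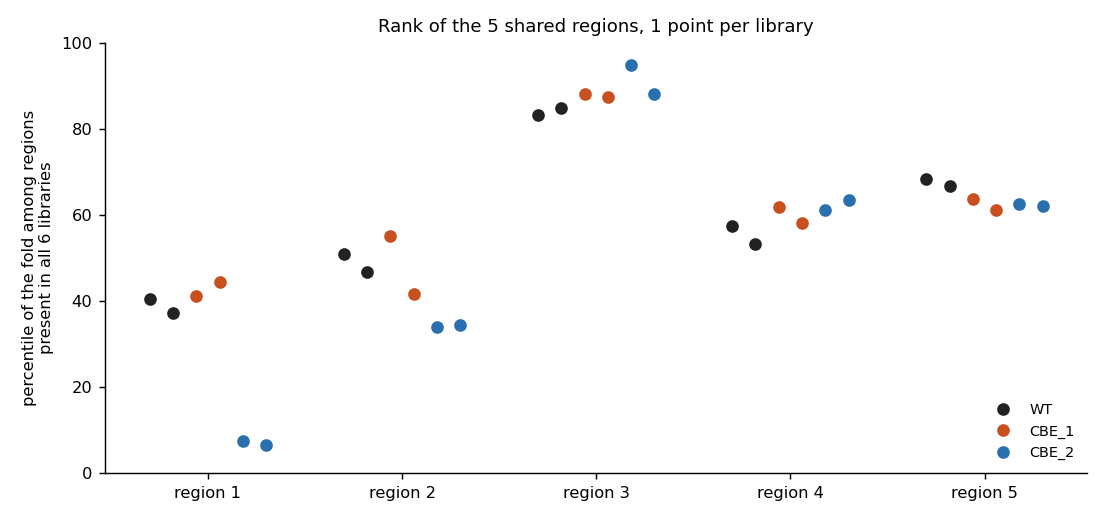
Percentile of the fold among the 47767 regions present in all 6 libraries (y axis) for regions 1 to 5, 1 point per library in the order WT, CBE_1, CBE_2. Mutated libraries lie above WT at regions 3 and 4 and below WT at region 5; at region 1 the CBE_2 libraries stand at 7.5 and 6.5, far below the other 4.

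Across the window the 5 shared regions did not move as a group. All mutated libraries were above WT in 2, below in 1 and overlapped with WT in 2, and 5 regions are too few to set these counts apart from 20.3% and 20.1% of shared regions. The median difference in percentile, mutated minus WT, was -5.15 points. The changes of presence were at regions 7, 9 and 10 at the IGCR1 end (and region 8, found in 1 WT library), and at region 6, beside region 5. Peaks of the window made up 0.02585% and 0.02542% of all covered bases for WT, 0.02870% and 0.02587% for CBE_1 and 0.02282% and 0.02177% for CBE_2. CBE_2 was lowest on this measure, and CBE_1 replicate 2 was level with WT replicate 1. In length, peaks covered 20.72 and 19.17 kb of the window in WT and 15.1 to 15.74 kb in the mutated libraries, where all peaks together also covered less of the genome.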

How the data were processed

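The data are 6 peak lists, 1 per library, from ATAC-seq with 11 cycles of PCR and single reads, per the labels. The submitters' processing notes name Trimmomatic, Bowtie2, SAMtools, Picard and the build mm9. Which peak caller was used, with which settings and with what shift of the reads, is not given in the sources used here. The deposited values of a peak are a score, a fold over background (a ratio), and −log10 of the p-value and q-value. All are the authors' own, used to describe and rank peaks within a list.

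Peaks were merged at 1 bp overlap (Python 3.11.15, numpy 2.4.6, scipy 1.17.1). A region has the fold, summit and rank of its highest peak. A pileup is the fold divided by its step, minus 1. Under a Poisson model with this pileup and a background of 5.63 to 8.59 reads, the deposited −log10 p-value was met within 1% for 99.89% of peaks or more in each list. Merging was tested on simulated lists with at most 1 peak per list at each of many well separated places. Split or bridged peaks, as in region 2, were not part of that test. Duplicates are numbered in accession order. All regions of the window are named. The members and comparisons were chosen with earlier results of these data known. Sequences of the regions were not used here. The alternatives left out each library, shortened the lists, and changed merging, matching and ranking.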

Additional observations from a re-analysis of the deposited data

Results flagged for a closer look

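At region 1, on the constant-gene side of the window, the mutated lines differed from WT in opposite directions. The mean percentile among shared regions was 3.91 points higher in CBE_1 than in WT, and in CBE_2 it fell by 31.8 points. Both CBE_1 libraries lay above both WT libraries and both CBE_2 libraries below them. Taken singly, these orders held in 36.9% and 33.2% of shared regions. CBE_1 replicate 1, at 41.1, exceeded WT replicate 1 by less than 1 point. The difference between the mutated lines was not tested.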

How the results depend on the processing

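The number of regions present in all libraries (5) was 5 to 7 without 1 library and 4 to 7 over all 10 alternatives. The number of WT-only regions (2) was 2 to 3 without 1 library and 4 with the better 50% of each list, where regions 6 and 7 joined. Regions 9 and 10 remained WT-only in lists of the same length. Among the mutated lists of that length, region 7 had a peak only in CBE_1 replicate 1, and in neither CBE_2 library. The share of WT-only regions among those as strong as region 9 was 4.61% to 5.37% without 1 library, 6.44% with lists of the same length, 16.8% with the better 50% of each list, 1.69% with no upper limit on strength and 2.79% on chromosome 12. For region 10 these were 3.95% to 4.46%, 5.26%, 12.8%, 1.14% and 2.7%. The median percentile difference of the shared regions was -6.03 to -4.2 points without 1 library, -0.742 with the better 50% and 0.284 with peaks within 200 bp merged, on 4 regions each, since region 1 dropped out or joined region 2. The difference of region 1 ranged from -20.6 to -7.77 without 1 library. With peaks within 200 bp merged it was -6.86, a value of regions 1 and 2 joined. The differences of regions 2 to 5 kept their sign in all 10 alternatives. No paired analysis was possible because the labels carry no replicate numbers. The unknown read depth limits every statement on absence.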
